A study of Mus musculus with 8 samples.

Results

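Epididymal white adipose tissue (eWAT) was compared with liver within Crtc1-/- mice, which gave 4 of the 8 RNA-seq libraries of the series: 2 of eWAT and 2 of liver, chosen by their tissue and genotype labels. All 4 libraries came from male C57BL/6 mice aged 12 weeks that carried the CRISPR/Cas9-made Crtc1-/- genotype in the whole body, ate a normal diet and were fasted for 16 hours before they were killed. The other 4 libraries, 2 of eWAT and 2 of liver from Crtc1+/+ mice treated in the same way, entered where they are named: in the Crtc1 counts and marker shares, in the choice of liver-restricted genes and of liver genes that differ by genotype, and in fits of all 8 libraries. P-values measure only the spread between these libraries. The labels do not say whether eWAT and liver with the same replicate number came from the same mouse, and each tissue piece was a bulk sample, so fewer cells of a type and less RNA per cell cannot be told apart.

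White adipocytes store triglyceride in a lipid droplet coated by perilipin and CIDE proteins, release fatty acids and glycerol by lipolysis during fasting, and secrete adipokines such as leptin and adiponectin. Hepatocytes take up those fatty acids for oxidation and ketone body synthesis, make glucose from glycerol and amino acids, dispose of nitrogen through the urea cycle, and secrete most plasma proteins. CRTC1, the gene product that the mice lack by their label, is a coactivator of the cAMP-responsive factor CREB.

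The 4 libraries held between 16560085 and 19021282 estimated counts. Levels are given as CPM, that is counts scaled to a common library size, after trimmed mean of M-values (TMM) scaling unless stated otherwise, and a gene was called when edgeR's quasi-likelihood test gave a Benjamini-Hochberg adjusted p under 0.05. By library-size CPM the counts of Crtc1 were 22.1 and 18.6 in Crtc1-/- liver against 11.6 and 9.61 in Crtc1+/+ liver. In eWAT they were 57.6 and 27.5 in Crtc1-/- against 36.9 in each Crtc1+/+ library. Of the libraries labelled Crtc1-/-, only eWAT replicate 2 thus lay below the Crtc1+/+ libraries of its tissue. A count per gene does not separate exons, so it does not check a deletion inside the gene. The paper reports that it checked the knockout by PCR with primers for the missing exons and by Western blot. Between the tissues Crtc1 did not pass the test (34.2 and 21.6 CPM in eWAT, 33.0 and 26.6 CPM in liver, adjusted p = 0.838 by edgeR's quasi-likelihood test).

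Markers of the labelled tissues were present, and the second eWAT library stood apart. The 16 adipocyte markers made up 4.3% and 2.06% of the counts of eWAT replicates 1 and 2, against 0.0165% and 0.0175% of the liver libraries. The 17 hepatocyte markers found in the table made up 19.5% and 22.5% of the liver libraries, 0.597% of eWAT replicate 1 and 10.6% of eWAT replicate 2. Thus the RNA of eWAT replicate 2 carried both marker sets; its adipocyte share was below and its hepatocyte share above that of replicate 1. Markers of Kupffer cells, the resident macrophages of liver, moved with it: their share was 0.00184% in eWAT replicate 1, 0.00833% in eWAT replicate 2, and 0.0214% and 0.0109% in liver. Whether liver RNA was carried into eWAT replicate 2 was not tested, and counts of calls in lists that hold liver genes are given with and without that library. The correlation of log2 CPM over genes was 0.842 between the eWAT libraries, which are replicates, 0.828 and 0.832 between eWAT replicate 2 and the livers, and 0.584 and 0.582 between eWAT replicate 1 and the livers, as a description of libraries that share the same scaling. eWAT replicate 2 was thus about as close to the livers as to its own replicate.

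**Figure D1:**
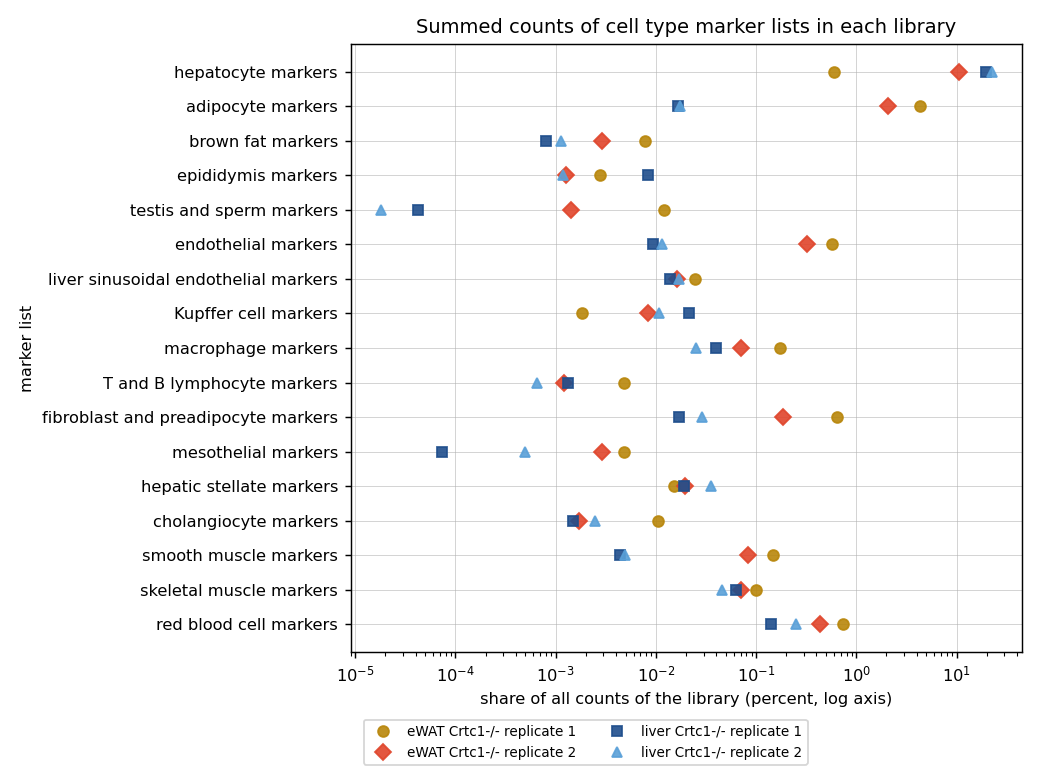
Share of all counts (percent, log axis) taken by each of 17 cell type marker lists in the 4 Crtc1-/- libraries, 1 point per library. The hepatocyte share of eWAT replicate 2 (10.6%) lies next to the liver libraries (19.5% and 22.5%), while its adipocyte share (2.06%) lies next to that of eWAT replicate 1 (4.3%).

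Hepatocyte and adipocyte genes are read by factor families that recognise short motifs near gene starts. HNF1 factors bind a palindrome with the core GTTAAT and drive albumin, fibrinogen and alpha-1-antitrypsin genes in hepatocytes, and C/EBP factors bind TTGCNNAA in both tissues. Each sequence below is the 100 bases before a RefSeq gene start in GRCm38.p6, read 5′ to 3′ on the strand of the gene, with the motif on either strand in capitals. Alb, Fgb, Fga and Serpina1c are shown as liver genes with an HNF1 core there, and Lep and Plin1 as fat genes with a C/EBP motif.
Alb, chr5:90460770-90460869, plus strand: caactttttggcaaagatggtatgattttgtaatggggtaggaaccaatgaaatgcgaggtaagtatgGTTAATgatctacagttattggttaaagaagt
Fgb, chr3:83049864-83049963, minus strand: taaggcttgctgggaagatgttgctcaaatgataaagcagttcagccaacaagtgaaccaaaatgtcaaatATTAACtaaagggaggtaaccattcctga
Fga, chr3:83026053-83026152, plus strand: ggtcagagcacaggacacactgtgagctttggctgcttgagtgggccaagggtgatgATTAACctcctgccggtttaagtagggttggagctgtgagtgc
Serpina1c, chr12:103904951-103905050, minus strand: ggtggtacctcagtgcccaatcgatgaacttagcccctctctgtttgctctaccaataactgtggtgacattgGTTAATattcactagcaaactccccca
Lep, chr6:29060121-29060220, plus strand: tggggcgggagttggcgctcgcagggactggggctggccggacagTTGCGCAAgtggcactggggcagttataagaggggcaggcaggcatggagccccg
Plin1, chr7:79732777-79732876, minus strand: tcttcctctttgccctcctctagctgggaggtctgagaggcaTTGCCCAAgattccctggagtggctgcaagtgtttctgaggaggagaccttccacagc

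The motif starts 32 bases before the Alb start, 29 before Fgb, 43 before Fga, 27 before Serpina1c, 55 before Lep and 58 before Plin1. Windows ran from 250 bases before to 50 after the start, and shares are per gene with a RefSeq promoter. GTTAAT was found on either strand for 5 of the 14 hepatocyte markers (35.7%), for 0 of 11 adipocyte markers and for 6.35% of all 15154 genes with a promoter. TTGCNNAA was found for 5 of 14 hepatocyte markers (35.7%), 4 of 11 adipocyte markers (36.4%) and 11.2% of all genes with a promoter. AGGTCA is a core shared by HNF4A and by PPAR with its RXR partner. It was found for 35.7% of the hepatocyte markers, 18.2% of the adipocyte markers and 16.7% of all genes with a promoter. A match is a string of letters and not a bound site, and the motifs may overlap.

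Across the transcriptome, 2485 of 13458 genes tested were called. Of these 2183 were higher in eWAT, which is 16.2% of the genes tested, and 302 were higher in liver, which is 2.24%; under library-size scaling the split was 5667 and 48. With the study's own cutoffs, a log2 change beyond 1 in either direction and a p before adjustment below 0.01, there were 2246 genes higher in eWAT and 340 in liver. The eWAT and liver libraries did not overlap for 5375 genes higher in eWAT (39.9% of those tested) and for 4734 higher in liver (35.2%). The median log2 fold change over all genes was 0.06; scaling by library size alone moved it to 1.17 and upper quartile scaling to 0.11.

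The number of calls toward liver depended on eWAT replicate 2. Without that library 6512 of 14678 genes were called, 3851 higher in eWAT (26.2%) and 2661 higher in liver (18.1%), and the common biological coefficient of variation fell from 0.454 to 0.283. Of the 2183 genes higher in eWAT, 2146 were called again (98.3% of those and 55.7% of the 3851), and of the 302 higher in liver 300 were called again (99.3% of those and 11.3% of the 2661). Among the 2661 genes, eWAT replicate 2 lay above eWAT replicate 1 for 2625 (98.6%), and for 2522 it lay between eWAT replicate 1 and the livers. Among the genes called higher in eWAT in that fit, eWAT replicate 2 lay above replicate 1 for 422. Both sets were chosen in a fit where replicate 1 was the only eWAT library. That choice favours a replicate 2 value nearer to liver, so these counts alone do not test replicate 2. The same share over all genes tested was not taken. Leaving out either liver library instead left 0 calls by edgeR's quasi-likelihood test, with 3040 and 3032 genes at an unadjusted p under 0.05. Counts of list members called higher in liver are therefore given in both ways below, and where a single eWAT library is used it is assumed to vary like the liver pair. They are read against the shares of all genes tested given above, which with all 4 libraries were 16.2% toward eWAT and 2.24% toward liver. A list with few calls may hold no more than these shares.

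**Figure D2:**
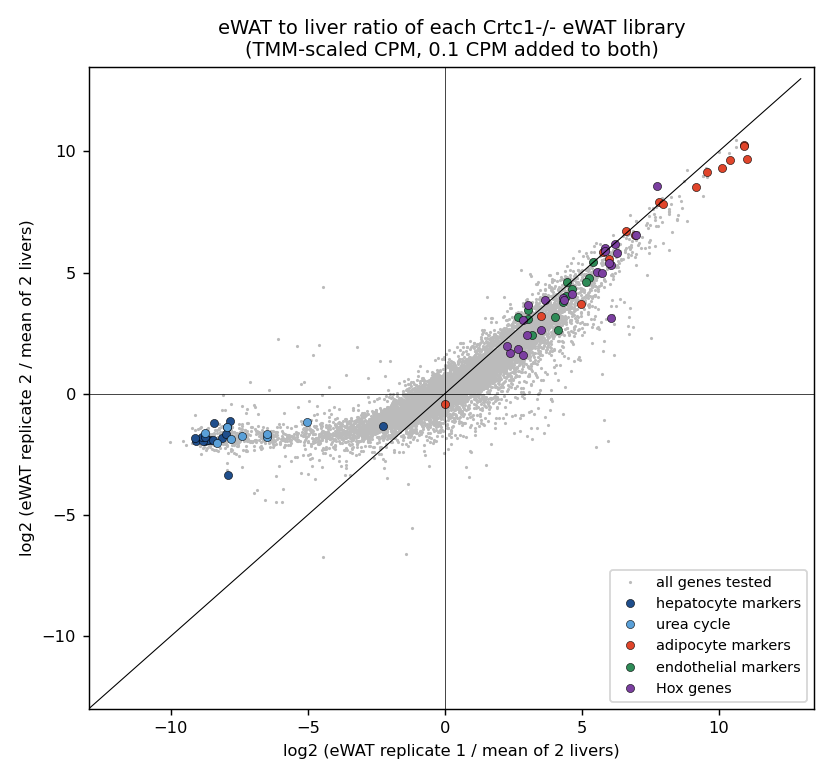
Each grey point is a tested gene: the x axis gives the log2 ratio of eWAT replicate 1 to the mean of the 2 Crtc1-/- livers, the y axis the same ratio for eWAT replicate 2, both with 0.1 CPM added. Genes higher in eWAT (adipocyte, endothelial and Hox lists) follow the line of equal ratios, while hepatocyte markers and urea cycle genes that are far lower in replicate 1 lie near 1 level in replicate 2: Alb was at 0.186% of the liver mean in replicate 1 and at 25.6% in replicate 2.

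Adipocyte genes had the highest median log2 fold change of the 39 lists described. Of 16 adipocyte markers, 15 were called higher in eWAT and 0 in liver, with a median log2 fold change of 8.7 (7.8 with genes absent from liver put at their lower bound). Fabp4, the fatty acid binding protein of adipocytes, stood at 10640 and 6174 CPM in eWAT and at 8.48 and 10.45 CPM in liver, a log2 fold change of 9.79 ± 1.25 (SE). Adipoq, which encodes adiponectin, stood at 1637 and 1023 CPM in eWAT and at 0.942 and 0.518 CPM in liver (log2 fold change 10.81 ± 0.88, adjusted p = 0.00826 by edgeR's quasi-likelihood test). Cfd, the protease adipsin, stood at 5125 and 2968 CPM against 5.65 and 1.64 CPM (log2 fold change 10.11 ± 1.30). For all of these both eWAT libraries lay far above both livers, and the lower eWAT library was replicate 2.

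Mrap, an accessory protein of melanocortin receptors, was the adipocyte marker that did not pass the test: it stood at 161.0 and 120.5 CPM in eWAT and at 145.4 and 173.2 CPM in liver, so the tissues overlapped (log2 fold change -0.18 ± 0.37). It lies outside the naming rule and is given because it was the exception.

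The 10 genes with the largest fitted rise in eWAT were Lep, Rgcc, Apol6, Nnat, Adig, Rbp7, Slc7a10, Adipoq, Retn and Retnla, among genes with a mean log2 CPM of at least 5, with log2 fold changes from 10.51 to 12.17. For 7 of them the liver libraries held 3 counts or fewer in all, so the order within the 10 depends on the prior count. Lep, encoding the satiety hormone leptin, stood at 270.9 and 165.7 CPM in eWAT and had 1 count over both livers, a ratio of 5518 with an exact 95% counting interval from 990.4 to 218000. Retn, encoding the adipokine resistin, stood at 1137 and 447.9 CPM in eWAT and at 0.706 and 0.173 CPM in liver (log2 fold change 10.78 ± 1.19). Retnla, a resistin-like protein of macrophages and fat, stood at 145.4 and 115.2 CPM in eWAT with 2 liver counts, a ratio of 1614 with a counting interval from 446.9 to 13330.

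The other named genes have varied roles. Nnat, an imprinted gene for a small membrane proteolipid, stood at 537.1 and 482.5 CPM in eWAT and at 0.392 and 0.0864 CPM in liver (log2 fold change 10.998 ± 0.92). Adig, encoding adipogenin, stood at 107.4 and 76.4 CPM with 1 liver count, and Rbp7, a retinol binding protein of fat and endothelium, at 217.2 and 114.6 CPM with 2 liver counts. Slc7a10, an amino acid transporter known as Asc-1 and a surface marker of white adipocytes, stood at 106.1 and 68.5 CPM with 1 liver count. In each of the 10 genes both eWAT libraries lay above both livers, and replicate 2 was the lower of the eWAT pair.

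Lipid droplet and lipolysis genes leaned toward eWAT, with 17 of 22 above 0 and 5 below. Of 22 members 13 were called higher in eWAT and 0 in liver, with a median log2 fold change of 1.84, and 14 and 3 without eWAT replicate 2. Pnpla2, encoding adipose triglyceride lipase, stood at 3230 and 2083 CPM in eWAT and at 317.9 CPM in each liver (log2 fold change 3.06 ± 0.67, adjusted p = 0.0414 by edgeR's quasi-likelihood test). Plin4, a droplet coat protein, stood at 1177 and 1260 CPM against 8.79 and 15.0 CPM (log2 fold change 6.68 ± 0.67), and Cidec, which fuses droplets in fat, at 2729 and 2071 CPM against 24.9 and 19.1 CPM (6.77 ± 0.75). Mgll, the lipase of the last step of lipolysis, did not pass the test, with 2081 and 1743 CPM in eWAT and 762.0 and 1143 CPM in liver (1.005 ± 0.62). Its tissues did not overlap, which held toward eWAT for 39.9% of all genes tested.

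Related genes that serve the same step in different tissues were compared within each library. In 17 pairs of a form known from liver and a form known from fat or most other tissues, the ratio of the forms was taken from FPKM, which corrects for transcript length. Pairs and their roles come from textbook knowledge. The liver form had the higher FPKM in 16 of 17 pairs in liver replicate 1 and in 16 of 17 in liver replicate 2, in 1 of 17 in eWAT replicate 1 and in 9 of 17 in eWAT replicate 2. The log2 FPKM ratio of Fabp4 to Fabp1 was 10.45 in eWAT replicate 1, 2.14 in eWAT replicate 2, and -8.49 and -8.71 in liver. For the glucose transporters Slc2a4 over Slc2a2 it was 7.04, -0.43, -5.72 and -6.36 in the same order. Carnitine palmitoyltransferase, which passes fatty acids into mitochondria, was the pair in which the liver form led in all 4 libraries, with Cpt1b over Cpt1a at -2.89, -4.09, -5.89 and -4.00.

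**Figure D3:**
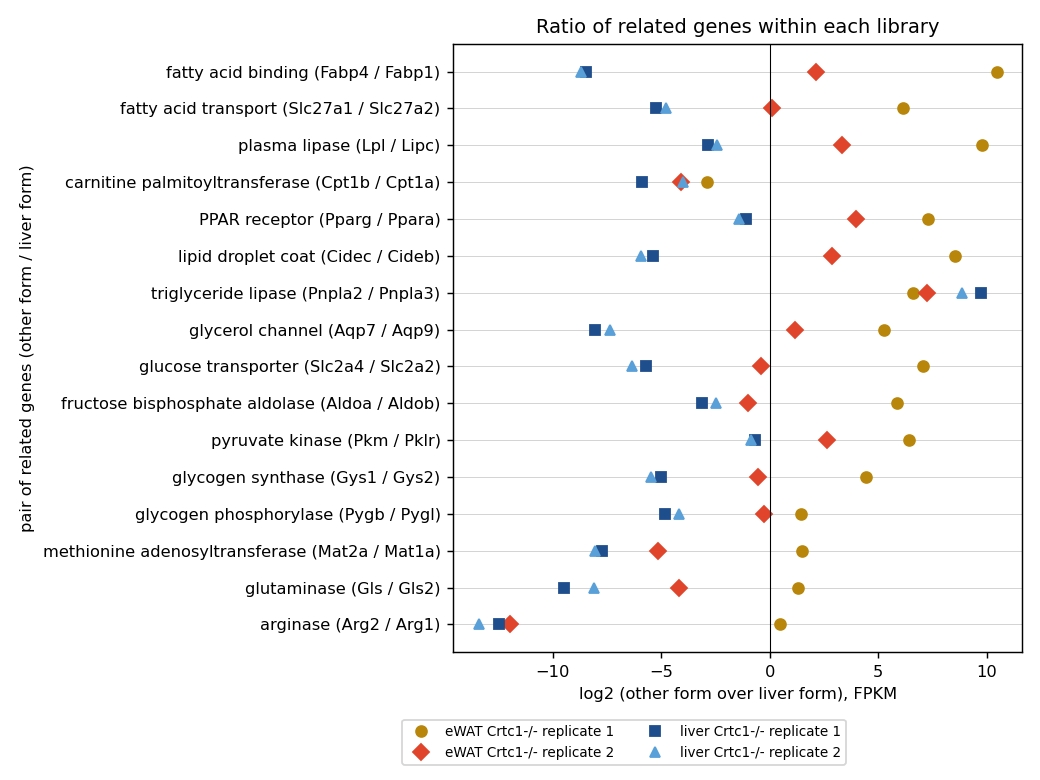
Log2 ratio of FPKM of the fat or general form over the liver form for 16 of the 17 pairs of related genes, 1 point per Crtc1-/- library. eWAT replicate 1 lies right of 0 in 15 of these 16 pairs and each liver library left of 0 in 15 of 16; eWAT replicate 2 lies between them for Fabp4 over Fabp1, at 2.14.

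Gene by gene, the pairs split by form. Of the 17 fat or general forms, 12 were called higher in eWAT and 0 in liver with all 4 libraries, and 14 and 0 without eWAT replicate 2. Of the 17 liver forms, 0 were called higher in liver and 1 in eWAT with all 4 libraries, and 16 were called higher in liver and 1 in eWAT without eWAT replicate 2. The exception was Pnpla3, a triglyceride hydrolase placed here as the liver form after its role in human liver, which stood at 56.8 and 22.8 CPM in eWAT and at 0 and 0.518 CPM in liver (log2 fold change 7.28 ± 1.12). Aqp7, the glycerol channel of adipocytes, stood at 206.1 and 187.3 CPM against 0.942 and 0.518 CPM (log2 fold change 8.05 ± 0.53). Its partner Aqp9, the glycerol channel of hepatocytes, stood at 6.33 CPM in eWAT replicate 1, 94.6 CPM in eWAT replicate 2, and 461.4 and 269.9 CPM in liver (-2.86 ± 1.27, and -5.92 without eWAT replicate 2).

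Among the general sugar handling forms, Slc2a4, Gys1, Pygb and Hk2 were called higher in eWAT, and Aldoa and Pkm were not called with all 4 libraries. Slc2a4, the insulin-responsive glucose transporter GLUT4, stood at 90.9 and 38.0 CPM in eWAT and at 3.45 and 2.16 CPM in liver (log2 fold change 4.51 ± 0.58). Gys1 and Pygb, glycogen synthase and phosphorylase outside liver, were higher in eWAT by 3.41 ± 0.33 and 4.01 ± 0.39 on the log2 scale, and Hk2 by 3.58 ± 0.36. Aldoa, Mat2a and Cpt1b were the general forms that did not pass in either set of libraries, with log2 fold changes of 0.55, 0.80 and -0.76. Pkm missed the threshold with all 4 libraries (1.97 ± 0.48, adjusted p = 0.0519 by edgeR's quasi-likelihood test) and passed without eWAT replicate 2, and Arg2, at 5.61, 0.0447, 0.0785 and 0 CPM in eWAT replicates 1 and 2 and liver replicates 1 and 2, had too few counts for the test of 4 libraries.

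General endothelial markers were uniformly higher in fat, and those of liver sinusoids were not. All 13 endothelial markers were called higher in eWAT, with a median log2 fold change of 4.09. Cdh5, the adhesion protein VE-cadherin, stood at 767.7 and 546.5 CPM in eWAT and at 24.2 and 15.1 CPM in liver (log2 fold change 5.06 ± 0.57), and Cldn5, a tight junction claudin, at 425.8 and 436.2 CPM against 8.79 and 10.9 CPM (5.45 ± 0.45). The 7 markers of liver sinusoidal endothelium were mixed: 0 were called higher in eWAT and 1 in liver with all 4 libraries, and 1 and 5 without eWAT replicate 2. The scavenger receptor gene Stab1 and the Fc receptor gene Fcgr2b lay above 0 with no overlap between tissues (log2 fold changes of 0.90 ± 0.37 and 0.77 ± 0.32), and Stab1 was the 1 called in eWAT without that library. Such absence of overlap toward eWAT was seen for 39.9% of all genes tested. The 1 called in liver with all 4 was the nuclease gene Dnase1l3, at 8.76 and 21.2 CPM in eWAT and 62.8 and 82.0 CPM in liver (-2.27 ± 0.50). Clec4g, a sinusoidal lectin, stood at 0.353 CPM in eWAT replicate 1, 10.01 CPM in eWAT replicate 2, and 32.7 and 37.6 CPM in liver, and passed without eWAT replicate 2 but not with it.

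Most listed collagen and smooth muscle genes were called higher in eWAT, and 3 collagens lay below 0. Of 23 collagen genes 15 were called higher in eWAT and 0 in liver (median log2 fold change 3.93), and 17 and 1 without eWAT replicate 2. The basement membrane chains Col4a1 and Col4a2 stood at 2324 and 1654 CPM and at 1719 and 1206 CPM in eWAT, against 65.3 and 62.6 CPM and 51.2 and 50.7 CPM in liver, with log2 fold changes of 4.96 ± 0.66 and 4.84 ± 0.61. Col1a1 showed the widest gap between the eWAT libraries among the named collagens, at 1133 and 275.3 CPM, against 39.5 and 53.1 CPM in liver (3.93 ± 0.86). Col18a1, the source of endostatin and a collagen of hepatocytes, lay in the other direction, at 149.1 and 320.7 CPM in eWAT and 1316 and 804.5 CPM in liver, and was called higher in liver without eWAT replicate 2 (-2.89) but not with it (-2.17 ± 0.65). Of 7 smooth muscle markers 5 were called higher in eWAT, among them the actin gene Acta2 at 449.1 and 404.3 CPM against 11.9 and 12.0 CPM (5.16 ± 0.43); the other 4 were Myh11, Tagln, Lmod1 and Smtn. Of 12 fibroblast and preadipocyte markers 8 were called higher in eWAT and 0 in liver (9 and 1 without eWAT replicate 2), and of 6 mesothelial markers 3 were called higher in eWAT, Upk1b, Lrrn4 and Muc16. Lrrn4 and Muc16 had 3 counts or fewer in each liver, so they passed the filter on low counts through eWAT, which sets their direction. Mfap5, a microfibril protein of fat fibroblasts named here after its values were seen, stood at 56.8 and 28.4 CPM with 1 liver count.

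Hox genes encode the factors that set position along the body axis and stay on in adult mesenchyme. Of 39 listed, 38 were in the table, 23 were tested, and 20 of these were called higher in eWAT and 0 in liver; the other 15 had few or no counts in the 4 libraries. The livers held 105 and 125 counts over all 38 genes and the eWAT libraries 7736 and 4682, so the genes tested passed the filter on low counts through eWAT, and their direction follows in part from that filter. Hoxc8 stood at 21.6 and 37.7 CPM in eWAT with 0 counts in either liver, at least 229.6-fold higher against a floor of 3 counts over both livers. Hoxd8 stood at 22.7 and 16.8 CPM with 2 liver counts, a ratio of 245.8 with a counting interval from 68.0 to 2030. Hoxc6 stood at 27.7 and 20.2 CPM against 0 and 0.518 CPM (log2 fold change 6.55 ± 0.97), and Hoxb4 at 17.9 and 27.9 CPM against 1.73 and 2.51 CPM (3.43 ± 0.40). As a description of the genes tested, their median log2 fold change was 5.6, or 5.41 with genes absent from liver at their lower bound.

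Few immune and blood markers passed the test. Of 10 macrophage markers 0 were called in either direction by edgeR's quasi-likelihood test, 1 had an unadjusted p under 0.05, toward eWAT, and DESeq2 called 2; their log2 fold changes ran from 0.0229 to 2.75. C1qa, a complement chain made by macrophages, stood at 217.1 and 115.4 CPM in eWAT and at 172.3 and 108.8 CPM in liver, so the tissues overlapped. Of 6 Kupffer cell markers 0 were called with all 4 libraries and 5 were called higher in liver without eWAT replicate 2, among them Clec4f at 0.321 and 23.2 CPM in eWAT and 113.8 and 67.7 CPM in liver. Of 6 Kupffer cell markers 2 had an unadjusted p under 0.05, toward liver, and DESeq2 called 2 toward liver and 1 toward eWAT. Of 5 red blood cell markers and 9 tested lymphocyte markers 0 were called by edgeR's quasi-likelihood test with all 4 libraries, 0 had an unadjusted p under 0.05 and DESeq2 called 0; the hemoglobin genes are near-identical copies whose counts may be divided between them.

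Hepatocyte genes lay far below liver in eWAT replicate 1 and nearer to it in eWAT replicate 2. Of 17 hepatocyte markers 0 were called higher in liver with all 4 libraries, with a median log2 fold change of -2.81, and 17 were called without eWAT replicate 2, with a median of -8.63. By edgeR's quasi-likelihood test 1 of the 17 had an unadjusted p under 0.05 with all 4 libraries, and DESeq2 called 2, both toward liver. Alb, encoding serum albumin, stood at 304.7 CPM in eWAT replicate 1, 42120 CPM in eWAT replicate 2, and 141700 and 186700 CPM in liver. Its log2 fold change was -2.95 ± 3.29 (adjusted p = 0.519) with all 4 libraries and -9.14 (adjusted p = 1.48e-05) without eWAT replicate 2, both by edgeR's quasi-likelihood test, and over 15 alternatives its adjusted p ran from 1.48e-05 to 0.764. Ahsg, encoding fetuin-A, stood at 63.1 and 7057 CPM in eWAT and 30100 and 24150 CPM in liver, and Serpina1c, an alpha-1-antitrypsin of a multigene family whose reads may be divided, at 39.0 and 4923 CPM against 19930 and 13830 CPM. In each gene both eWAT libraries lay below both livers, so the groups did not overlap although the test was not passed. With 2 libraries per tissue this is common: it held toward liver for 35.2% of all genes tested.

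Most liver-restricted genes were low in eWAT replicate 1 and nearer to the liver level in eWAT replicate 2. They were defined in the Crtc1+/+ libraries by a mean of at least 50 library-size CPM in liver and at most a set percent of that mean in each eWAT library. At 1% there were 5 genes (Mup7, Mup14, Mup11, Acnat2 and Serpina1e), so the looser limit of 5% is described, with 219 genes; the medians of those 5 were 2.39% in eWAT replicate 1 and 748% in eWAT replicate 2, and hepatocyte markers took 0.658% and 0.133% of the Crtc1+/+ eWAT counts. The median level of the 219 genes was 0.901% of the mean Crtc1-/- liver level in eWAT replicate 1, with quartiles of 0.603% and 1.53%. In eWAT replicate 2 it was 55.4%, with quartiles of 49.9% and 65.3%. Some members were not low in eWAT replicate 1, among them Cyp2e1 at 51.8%, Slc6a13 at 50.9%, Rtp3 at 48.0% and Trf at 22.3%. In eWAT replicate 2, 208 of the 219 lay within 2-fold of that median, and the whole range was 37.5% to 4110%. Against single livers the median in eWAT replicate 2 was 52.3% and 61.5% of Crtc1-/- replicates 1 and 2 and 47.9% and 45.7% of Crtc1+/+ replicates 1 and 2, and the SD of the log2 ratio over genes was 0.702 and 0.912 for the Crtc1-/- livers and 0.493 and 0.432 for the Crtc1+/+ livers, in which the genes were chosen. These percentages use library-size CPM; TMM scaling, with a factor of 1.27 for eWAT replicate 2 and 0.670 and 0.699 for the livers, lowers them, and on that scale the median of the hepatocyte markers was 28.1%. These genes took 41.0% and 42.1% of the counts of the Crtc1-/- livers, 1.12% of eWAT replicate 1 and 22.1% of eWAT replicate 2, as a share of library totals with no TMM scaling.

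**Figure D4:**
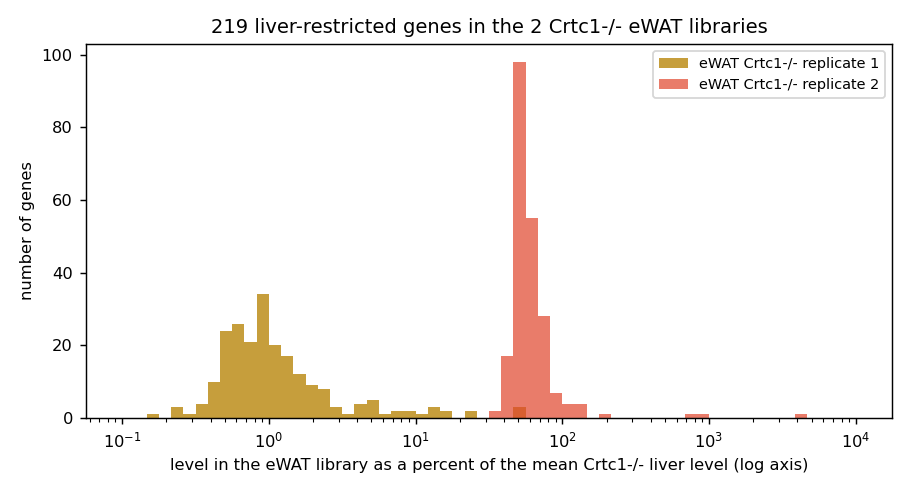
Histogram of the level of 219 liver-restricted genes in each Crtc1-/- eWAT library, as a percent of the mean Crtc1-/- liver level (log axis, library-size CPM; bar height is the number of genes). Replicate 1 centres on 0.901% and replicate 2 on 55.4%, with 3 genes of replicate 2 more than 4-fold above its median.

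Genes that the livers of the 2 genotypes express unequally were followed into eWAT replicate 2; the rule for these genes was chosen after values were seen. Of 13 liver genes at least 4-fold apart between the genotypes, 7 were higher in Crtc1-/- liver and 6 in Crtc1+/+ liver. Sult2a1, a steroid sulfotransferase, stood at 18.8 and 317.2 library-size CPM in Crtc1-/- liver, 0.363 and 0.0511 in Crtc1+/+ liver, 0.216 in eWAT replicate 1 and 77.6 in eWAT replicate 2. All 7 genes of this kind, among them Cyp3a41a, Tff3, Cyp2b13, Sult2a2 and Hamp2, were above both Crtc1+/+ livers in eWAT replicate 2, at most at 46.2% of the Crtc1-/- liver level (median 33.1%). Mup7, a major urinary protein, stood at 2.79 and 1.93 library-size CPM in Crtc1-/- liver, 36.4 and 218.5 in Crtc1+/+ liver, 0.09997 in eWAT replicate 1 and 97.0 in eWAT replicate 2.

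All 6 genes of the second kind, with Mup14, Mup11, Mup1, Slco1a1 and Serpina1e, were above both Crtc1-/- livers in eWAT replicate 2, at 25.5% to 105% of the Crtc1+/+ liver level. Thus eWAT replicate 2 lay above the Crtc1+/+ livers for the genes of the first kind and above the Crtc1-/- livers for those of the second. The Mup, Sult, Cyp and Serpina1 genes belong to families of near-identical copies whose reads may be divided differently, and the source of these counts was not tested.

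Fat burning and triglyceride synthesis genes, which both tissues use, had medians nearer to 0 than the hepatocyte lists. Their calls with all 4 libraries are read against 16.2% of all genes tested called higher in eWAT and 2.24% in liver. Of 24 beta oxidation genes 0 were called with all 4 libraries (median log2 fold change -1.19; 10 had an unadjusted p under 0.05 by edgeR's quasi-likelihood test and DESeq2 called 19, all toward liver), and 19 were called higher in liver without eWAT replicate 2 (median -1.69). Under library-size scaling 9 of the 24 lay above 0, against 1 under TMM scaling. Of 16 triglyceride synthesis genes 2, Agpat4 and Dgat1, were called higher in eWAT and 0 in liver (median 0.37), with 6 and 1 without eWAT replicate 2, and Dgat2, which makes triglyceride from diglyceride, stood at 364.5 and 282.3 CPM against 631.0 and 543.3 CPM without passing the test (-0.86 ± 0.45).

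Gluconeogenesis and lipogenesis genes did not share 1 direction. Pck1, the cytosolic PEPCK that serves glucose output in liver and glycerol synthesis in fat, stood at 1582 and 2145 CPM in eWAT and at 2020 and 1535 CPM in liver, so the tissues overlapped (log2 fold change 0.07 ± 0.65). Fbp1, fructose bisphosphatase, stood at 8.38 CPM in eWAT replicate 1, 341.0 CPM in eWAT replicate 2, and 1535 and 464.5 CPM in liver (-2.52 ± 1.67, and -6.96 without eWAT replicate 2). Of 12 gluconeogenesis genes 1, the mitochondrial PEPCK gene Pck2, was called higher in eWAT and 0 in liver with all 4 libraries, and 2 and 7 without eWAT replicate 2. Scd1, the stearoyl-CoA desaturase, stood at 7231 and 2248 CPM in eWAT and at 1492 and 1235 CPM in liver (1.80 ± 0.93), and Fasn at 398.5 and 171.3 CPM against 207.0 and 269.0 CPM. Of 14 lipogenesis genes 1 was called higher in each tissue: Acacb, an acetyl-CoA carboxylase, at 199.7 and 280.2 CPM in eWAT and 29.6 and 18.0 CPM in liver (3.33 ± 0.46), and Mlxipl, the carbohydrate-responsive factor ChREBP, at 22.2 and 37.9 CPM against 95.05 and 83.3 CPM (-1.57 ± 0.37). Without eWAT replicate 2 there were 4 called in each tissue.

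Ketone body enzymes did not share 1 direction. Of the 5 genes, the 1 called higher in eWAT was Oxct1, which starts ketone use and is known to be absent from hepatocytes; it stood at 73.6 and 41.6 CPM against 3.45 and 4.06 CPM (3.94 ± 0.40). Oxct1 is named outside the rule, since its list had a single call. The other 4 genes were called higher in liver without eWAT replicate 2.

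Nitrogen disposal, clotting and bile acid genes showed the pattern of the hepatocyte markers. Of 8 urea cycle genes, 23 amino acid breakdown genes, 21 coagulation genes and 17 bile acid genes, 0 were called in either direction with all 4 libraries, and 8, 23, 20 and 17 were called higher in liver without eWAT replicate 2. With all 4 libraries 0, 2, 0 and 2 had an unadjusted p under 0.05 by edgeR's quasi-likelihood test, and DESeq2 called 0, 4, 0 and 3, all toward liver. Their medians moved from -2.67, -2.78, -2.86 and -2.70 to -7.74, -7.92, -8.40 and -8.22 on the log2 scale. Ass1, argininosuccinate synthase, stood at 42.7 and 2594 CPM in eWAT and at 10680 and 8487 CPM in liver, and Hpd, of tyrosine breakdown, at 14.1 and 1925 CPM against 6869 and 6302 CPM. Fgb, the fibrinogen beta chain whose upstream sequence is printed above, stood at 7.90 and 942.0 CPM against 3813 and 3445 CPM, and Cyp8b1, which sets the kind of bile acid made, at 2.95 and 222.8 CPM against 1249 and 519.7 CPM. Relative to the liver mean these 4 genes lay between 0.214% and 0.446% in eWAT replicate 1 and between 25.2% and 29.2% in eWAT replicate 2.

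Other lists mixed genes of both tissues. Of 20 genes of fatty acid uptake and activation 7 were called higher in eWAT and 1, the lipase maturation factor gene Lmf1, in liver (median log2 fold change -1.07; 7 of the 20 lay above 0 under TMM scaling and 10 under library-size scaling). Without eWAT replicate 2 the balance turned, with 7 called higher in eWAT and 10 in liver. Lpl, the lipoprotein lipase that frees fatty acids from plasma triglyceride, stood at 1137 and 1103 CPM in eWAT and at 57.4 and 56.9 CPM in liver (4.29 ± 0.53), so each pair of libraries lay close together. Of 20 branched-chain amino acid genes 2 were called higher in eWAT, the aminotransferase gene Bcat2 and the kinase gene Bckdk, and 1 in liver, Mcee, with 2 and 8 without eWAT replicate 2; 3 of the 20 lay above 0 under TMM scaling and 13 under library-size scaling. Of 24 complement genes 1 was called higher in eWAT, Cfd, and 2 in liver, among them Masp1, with 17 higher in liver without eWAT replicate 2. Of 19 apolipoprotein and lipoprotein genes 2 were called higher in eWAT, Apod and Apol6, and 1 in liver, with 17 higher in liver without eWAT replicate 2.

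**Figure D5:**
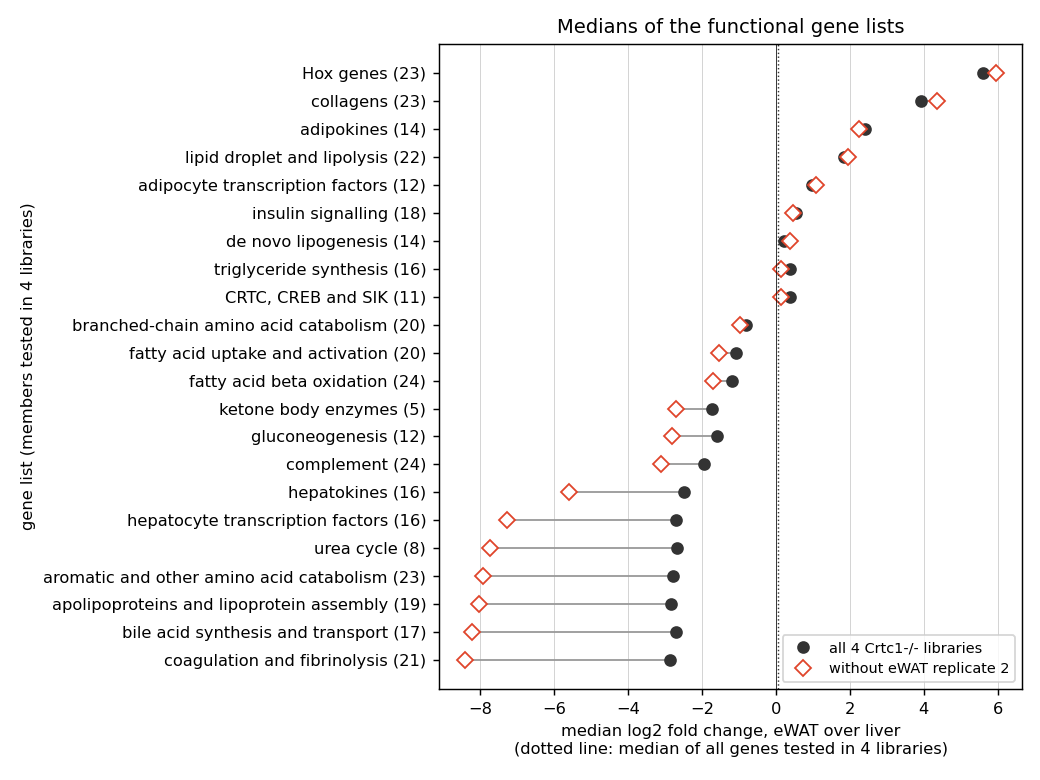
Median log2 fold change of eWAT over liver for 22 functional gene lists, with all 4 Crtc1-/- libraries (filled circles) and without eWAT replicate 2 (open diamonds); a line joins the medians of a list and numbers in brackets are members tested. Coagulation moves from -2.86 to -8.40 and the urea cycle from -2.67 to -7.74, complement less, from -1.95 to -3.11, while Hox genes stay at 5.60 and 5.95 and collagens at 3.93 and 4.35.

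Transcription factors of the 2 cell types gave calls in both tissues. Of 16 hepatocyte transcription factors 1 was called higher in liver with all 4 libraries and 16 without eWAT replicate 2. Hnf4a, a nuclear receptor needed for hepatocyte identity, stood at 11.5 and 186.9 CPM in eWAT and at 571.4 and 647.6 CPM in liver (log2 fold change -2.62 ± 1.28, and -5.79 without eWAT replicate 2). Ppara, the fasting-activated receptor of fatty acid oxidation, stood at 3.60 and 32.7 CPM against 141.3 and 121.5 CPM (-2.86 ± 1.04). Pparg, the receptor that directs adipocyte formation, stood at 148.4 and 121.0 CPM against 15.3 and 10.4 CPM (3.39 ± 0.38). Of 12 tested adipocyte transcription factors 5 were called higher in eWAT (Pparg, Ebf1, Ebf2, Zfp423 and Tle3) and 0 in liver, and 6 and 3 without eWAT replicate 2. The other direction was seen for 4 of the 12, with log2 fold changes of -1.41 ± 0.43 for Klf15, -1.13 ± 0.53 for Cebpb and -1.005 ± 0.48 for Rxra, the 3 called in liver without that library, and Cebpa, which both cell types use, stood at 497.9 and 483.4 CPM against 826.8 and 591.3 CPM (-0.53 ± 0.49).

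Secreted hormones and signalling genes were counted in the same way. Of 14 adipokine genes 6 were called higher in eWAT and 0 in liver (median log2 fold change 2.41), and 9 and 3 without eWAT replicate 2, although Rbp4, the retinol carrier that liver also makes, stood at 207.5 and 3347 CPM in eWAT and 9556 and 12040 CPM in liver (-2.60 ± 1.56). Of 16 hepatokine genes 0 were called with all 4 libraries, 5 had an unadjusted p under 0.05 by edgeR's quasi-likelihood test and DESeq2 called 8, all toward liver, and 16 were called higher in liver without eWAT replicate 2. In the insulin pathway 5 of 18 genes (among them Irs2, Tbc1d4, Tbc1d1 and Trip10) were called higher in eWAT and 0 in liver, and 6 and 2 without eWAT replicate 2; Tbc1d4, which holds GLUT4 inside the cell until insulin acts, stood at 9.63 and 8.63 CPM against 1.33 and 0.778 CPM (3.10 ± 0.45). Among 11 genes of the CRTC, CREB and SIK families the 1 called was Sik2, a kinase that restrains CRTC proteins and is abundant in fat, at 116.0 and 160.6 CPM in eWAT and 7.69 and 4.58 CPM in liver (4.49 ± 0.45). Crtc2, the main family member of liver, did not pass (47.6 and 48.6 CPM against 33.2 and 24.2 CPM, 0.75 ± 0.27).

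Genes called higher in liver with all 4 libraries had moderate differences. The 10 with the largest fall in eWAT, among genes with a mean log2 CPM of at least 5, were Orm2, Hhex, Grb7, Slc9a3r1, Ces2g, Ggact, Cdhr5, Dbp, Cmtm8 and Tmem176a, with log2 fold changes from -3.14 to -2.30. Orm2, an acute phase orosomucoid with near-identical relatives, stood at 5.27 and 16.9 CPM in eWAT and at 120.2 and 74.6 CPM in liver (-3.14 ± 0.67, adjusted p = 0.0388 by edgeR's quasi-likelihood test). Hhex, a homeobox factor of liver development, stood at 6.77 and 17.5 CPM against 114.7 and 52.8 CPM (-2.79 ± 0.65), and Dbp, an output factor of the circadian clock, at 38.1 and 50.3 CPM against 305.1 and 161.1 CPM (-2.40 ± 0.48). eWAT replicate 2 was the higher of the eWAT pair in all 10.

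Whether the eWAT to liver difference depended on genotype was tested as an interaction in all 8 libraries. Of 15587 genes 1081 were called (6.94%), 589 with a larger eWAT to liver ratio in Crtc1-/- and 492 with a smaller one. The balance depended on the setting: larger and smaller were 1161 and 895 with DESeq2, and 262 and 443 with library-size scaling. They were 420 and 545 with upper-quartile scaling, 600 and 647 with a mean count of at least 50, and 850 and 896 with a replicate block. The eWAT libraries of the genotypes differed in their makeup: epididymis markers took 7.997% and 9.28% of the counts in Crtc1+/+ eWAT and 0.00277% and 0.00128% in Crtc1-/- eWAT, and adipocyte markers took 0.234% and 0.368% against 4.3% and 2.06%. How much of the interaction follows these shares was not tested. The 3 largest positive interactions among genes with a mean log2 CPM of at least 3 were Nnat (5.98), Angptl4 (5.24) and Ablim3 (5.19). Angptl4, a fasting-induced inhibitor of lipoprotein lipase, stood at 782.0 and 1090 CPM in eWAT and 109.4 and 140.9 CPM in liver within Crtc1-/- (log2 fold change 2.90 ± 0.52). The 3 largest negative ones, Lcn10, Defb15 and AY761185, had at most 3 counts over both Crtc1-/- eWAT libraries, so their values depend on the prior count.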

How the data were processed

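RNA was extracted with Trizol from eWAT and liver and sequenced at BGI, 8 libraries in all. The authors deposited estimated counts per gene (5.44% to 9.98% of values were not whole) and, separately, FPKM, the same reads corrected for transcript length and depth. The submitters' processing notes name HISAT, Bowtie2 and GRCm38.p6; the counting tool and annotation are not given in the sources used here. Replicates were not pooled.

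Here the counts of the 4 Crtc1-/- libraries were rounded, filtered by filterByExpr (13458 of 19348 genes kept), TMM-scaled and tested with edgeR 4.0.16 quasi-likelihood (R 4.3.3), adjusted by Benjamini-Hochberg at 0.05. The TMM factors were 1.68 and 1.27 for eWAT and 0.670 and 0.699 for liver. DESeq2 1.42.0, limma 3.58.1 on log2(FPKM + 1) or log2(FPKM + 0.1) after quantile normalization, other filters and scalings, a replicate block and leaving out each library were alternatives. Deviations of same-numbered libraries correlated at 0.02 over genes, and numbers were not treated as pairs. With 2 libraries per tissue this correlation cannot show whether they came from the same mouse. The interaction of tissue and genotype used all 8 libraries. Intervals for ratios over 1 to 3 counts are exact 95% Poisson intervals for counting error only; 3 counts correspond to 0.158 to 0.181 library-size CPM.

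Members and gene lists were chosen with earlier results of these data known. Named genes were Crtc1, the 10 largest non-overlapping called differences in each direction with a mean log2 CPM of at least 5, up to 4 members of each of 39 lists with the highest mean CPM, all members of 17 gene pairs, the 5 liver-restricted genes farthest from the median ratio, and the 3 largest interactions in each direction; other genes named, such as the calls of lists with few calls, were chosen after their values were seen. On simulated counts of 13458 genes, of which 200 were given a log2 change of 3, edgeR recovered 59% with 10 false calls and DESeq2 94% with 91 false calls. A few genes that these rules name are not reported here.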

Additional observations from a re-analysis of the deposited data

Results flagged for a closer look

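The eWAT to liver difference depended on genotype for 1081 genes by the interaction term of edgeR's quasi-likelihood test in 8 libraries, 2 in each group. Each value here is the log2 difference in Crtc1-/- minus that in Crtc1+/+, and a positive value means that the eWAT to liver ratio was larger in Crtc1-/-. All named values had a Benjamini-Hochberg adjusted p under 0.05. The epididymis and adipocyte marker shares given above moved with these values, and their part in them was not tested.

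Of 22 lipid droplet and lipolysis genes 10 were called, and of 16 triglyceride synthesis genes 4, all positive, and the rest were not called. Among the fat storage genes called, Cidec was at 4.99, Plin4 at 3.89, Pnpla2 at 3.73, Aqp7 at 3.64, Mgll at 3.0, Dgat1 at 2.86, Dgat2 at 2.73 and Acacb at 4.71. The adipocyte factors Pparg, Cebpa and Rxra were at 2.87, 2.92 and 2.64, the melanocortin receptor partner Mrap at 3.57 and the fasting-induced Angptl4 at 5.24. Of 13 endothelial markers 8 were called, all positive, among them Cdh5 at 3.85 and Cldn5 at 3.8. Of 23 collagens 4 were called positive, among them Col4a1 at 2.83 and Col4a2 at 3.04, and 1 negative. The median over the collagens was -0.0367. Nnat was at 5.98, Ablim3 at 5.19, Rgcc at 4.77, Masp1 at 3.34 and the kinase gene Sik2 at 3.04.

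Genes with a smaller eWAT to liver ratio in Crtc1-/- included the epididymal genes Lcn10 at -21.08, Defb15 at -20.81 and AY761185 at -19.84, whose values depend on the prior count because Crtc1-/- eWAT held at most 3 counts of each. The smooth muscle myosin gene Myh11 was at -5.45, Apod at -4.03, the urothelial and mesothelial gene Upk1b at -3.55 and Tbc1d1 at -1.82.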

How the results depend on the processing

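The counts of called genes moved with the setting, and the cause was not tested. Against 2485 called (2183 higher in eWAT, 302 in liver) and 2586 at the study's cutoffs, DESeq2 gave 6510 (3675, 2835) and 4805, limma on log2(FPKM + 1) gave 91 (89, 2) and 1269, limma on log2(FPKM + 0.1) gave 652 (617, 35) and 2079, library-size scaling gave 5715 (5667, 48) and 4606, and all 8 libraries in a single fit gave 4330 with 1385 higher in liver. A mean count of at least 50 left 196 higher in liver. Leaving out a library gave 0 to 6512 called, 0 to 3851 higher in eWAT, 0 to 2661 higher in liver (882 without eWAT replicate 1) and 983 to 5452 at the study's cutoffs; the zeros came without either liver library, the highest counts without eWAT replicate 2. The replicate block, for numbers that may or may not pair the samples, gave 1296 called, 1246 higher in eWAT and 50 in liver, and 1746 interactions. Of 1081 interactions, library-size scaling gave 705 and DESeq2 2056, and leaving out a library gave 0 (without Crtc1+/+ liver replicate 1) to 2261 (without Crtc1-/- eWAT replicate 1). The ratio of liver-restricted genes in eWAT replicate 1 ran from 1.41% to 5.18% with a liver library left out, against 2.39%; in eWAT replicate 2 it was 748% for 5 genes (538% to 1170% with a liver library left out) and 55.4% for 219.

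Relative to all genes, the list median of de novo lipogenesis turned to -0.17 with no filter, and ran from -0.243 (without liver replicate 1) to 0.238 with a library left out. Triglyceride synthesis ran from -0.017 to 0.407 in the same way, and the CRTC, CREB and SIK list from -0.175 to 0.522, with -0.174 and -0.214 under limma at offsets of 1 and 0.1. Without eWAT replicate 2 the log2 fold changes of Elovl3, Mup7, Mup14 and Mup11 turned to -4.41, -5.67, -6.64 and -4.88; with another library left out they reached 2.74, 4.46, 3.06 and 2.002. The other values were counted once per list or named gene in each of up to 15 alternatives, so each list or gene counts repeatedly. For the 39 lists the median moved by less than its spread in 509 such cases and by more in 68. For the named genes 2492 cases stayed on the same side of the threshold, 255 passed it newly and 245 no longer did. Cases on the same side did not always keep their direction. The log2 fold change of Mup14, for example, was 1.28 without the replicate block and -1.26 with it. With 2 libraries per tissue, genes with few counts in both tissues, such as 11 of 19 epididymis markers and 15 of 38 Hox genes, could not be tested.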

Other observations

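Sperm markers were detected in Crtc1-/- eWAT at a low share. The 8 testis and sperm markers took 0.0120% of eWAT replicate 1, 0.00141% of eWAT replicate 2, and 0.139% and 0.0629% of the Crtc1+/+ eWAT libraries. Prm1, a protamine that packs sperm DNA, stood at 16.57 and 2.86 CPM in Crtc1-/- eWAT with 0 counts in liver, at least 87.8-fold higher against a floor of 3 counts over both livers, and Tnp2, a transition protein, at 17.1 and 2.41 CPM against 0.0785 and 0.0864 CPM. These 2 of 7 tested genes were called higher in eWAT by edgeR's quasi-likelihood test, but the livers held 8 and 3 counts over all 8 markers, so the genes tested passed the filter on low counts through eWAT, which sets their direction.

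Markers of brown fat, stellate cells, muscle and bile duct were read in the same way. Of 5 tested brown fat markers, Cidea and Cox8b were called higher in eWAT, at 4.43 and 1.61 CPM against 0.0785 and 0.0864 CPM, and at 33.6 and 9.74 CPM against 2.04 and 1.30 CPM; without eWAT replicate 2 there were 2 called in each tissue. Cidea had 3 counts or fewer in each liver, so it passed the filter on low counts through eWAT, which sets its direction. Ppargc1a (-1.53) and Cox7a1 (-0.29) lay below 0 and did not pass with all 4 libraries. Of 6 hepatic stellate markers the collectin gene Colec11 was called higher in liver (4.46 and 10.2 CPM against 43.4 and 38.2 CPM), and of 6 skeletal muscle markers Pvalb was (11.7 and 18.9 CPM against 56.6 and 41.0 CPM). Without eWAT replicate 2, 6 of 6 stellate and 5 of 6 muscle markers were called higher in liver, and with all 4 libraries 3 and 5 had an unadjusted p under 0.05 toward liver by edgeR's quasi-likelihood test and DESeq2 called 3 and 5. Of 5 cholangiocyte markers and 8 epididymis markers tested 0 were called by edgeR's quasi-likelihood test, with 1 and 3 at an unadjusted p under 0.05, and DESeq2 called 1 and 3. Most liver counts of the epididymis markers came from Crtc1-/- liver replicate 1, with 1590 against 195 in replicate 2. The Crtc1+/+ livers held 46 and 44. Without eWAT replicate 2, 2 cholangiocyte markers were called higher in eWAT and 1 in liver, and of 13 epididymis markers then tested 2 and 7.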
